A study of Rattus norvegicus with 2 samples.

Results

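The nuclear-encoded genes of the mitochondrial respiratory chain and ATP synthase were described in the paraventricular nucleus (PVN) of the rat hypothalamus. They were chosen by name: every probe whose gene name begins with Nduf, Uqcr, Atp5 or Cox followed by a digit between 4 and 8, or is Sdha, Sdhb, Sdhc or Sdhd. That gave 112 of 30367 probes and 89 of 19283 gene names, of which 78 name subunits: 37 of complex I, 4 of complex II, 7 of complex III, 15 of complex IV and 15 of ATP synthase. The other 11 are assembly factors, gene copies and genes that only share a prefix. The study dealt with high blood pressure that is programmed in the fetus, and 1 array was hybridised per group. The dexamethasone array held PVN RNA of male Sprague Dawley rats, 12 weeks old, born to mothers that had received 200 µg/kg of this synthetic glucocorticoid during late pregnancy (the third trimester). The control array held PVN RNA of male offspring of the same strain and age whose mothers had received vehicle. The labels do not say if an array carried RNA of 1 rat or of pooled rats.

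Complexes I and II pass electrons from NADH and succinate to ubiquinone, complex III passes them on to cytochrome c, and complex IV passes them to oxygen. Complexes I, III and IV pump protons while doing so, and ATP synthase uses the returning protons to make ATP. Each complex except complex II joins nuclear-encoded subunits to a few that the mitochondrial genome encodes, and neurons depend on this ATP for ion pumping and transmitter release.

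Probe brightness is given as processed signal, the scanner software's background-subtracted intensity, before any scaling between arrays. Differences are dexamethasone minus control in log2 units, after each array was divided by its 75th percentile of signal (1480 on the dexamethasone array and 1404 on the control array). A gene was measured if a probe was well above background on both arrays, and its brightest such probe was used. On the dexamethasone array 78.2% of all probes were well above background, against 79.5% on the control array. With 1 array per group there is no replicate check and no p-value, and the number of arrays limits the precision. The files give a pair of errors: the spread between repeated spots of a probe, with a median SD of 0.041 over 1314 repeated probes, and the error that the scanner software assigns, with a median of 0.204 for a member's difference.

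Of the 89 genes, 87 were measured on both arrays. None was 2-fold apart in either direction, while of the 15280 measured genes 3.28% lay 2-fold or more above control and 2.62% lay 2-fold or more below it. At a smaller limit of 0.32 on the log2 scale, 2 members were higher (Cox6a2 and Uqcr11), beside 15.9% of all measured genes, and 1 was lower (Uqcrq), beside 17.0%. The members thus stayed within a narrow band: their differences had an SD of 0.16, against 0.54 over all measured genes. The 3820 measured genes of highest signal, where most members lie, had an SD of 0.39, with 64 at least 2-fold higher and 28 lower. The band was not particular to the members. Among the other lists described below, SDs were 0.090 for glycolysis, 0.12 for the citric acid cycle list and 0.13 for assembly factors. They were 0.16 for mitochondrial ribosomal proteins, 0.25 for regulators and 0.47 for the carrier list. The log2 signals of the 87 genes on the dexamethasone and the control array correlated at 0.998 (Pearson) across genes, which are not independent replicates.

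**Figure D1:**
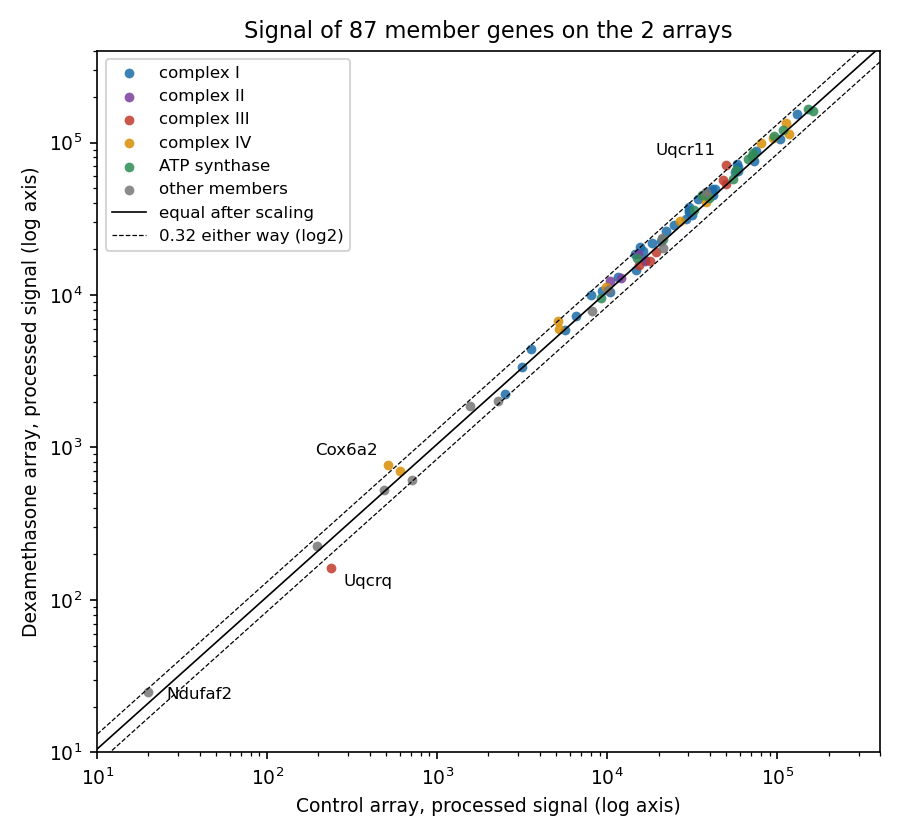
Processed signal of the 87 measured member genes on the dexamethasone array (vertical log axis) and the control array (horizontal log axis), 1 point per gene, coloured by complex. The solid line marks equal signal after scaling and the dashed lines a difference of 0.32 (log2) either way; Cox6a2 and Uqcr11 lie above the band and Uqcrq below it.

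Within that band most members lay slightly above 0. The difference was above 0 for 67 members, or 77.0%, where 51.2% of all measured genes lay above 0, and below 0 for 20, where 48.8% of all measured genes did. Their median was 0.11, with quartiles of 0.021 and 0.17, while all measured genes had a median of 0.0086 with quartiles of -0.21 and 0.20. Most member probes were bright: 77 of the 87 lay among the 3820 measured genes of highest signal, and these 3820 genes had a median of 0.042 with 57.5% of genes above 0. The members took 4.67% of the summed scaled signal on the dexamethasone array and 4.48% on the control array. With quantile normalization 53 members lay above 0 and 33 below, and with cyclic loess 51 and 36, with member medians of 0.042 and 0.034. Of all measured genes, 49.7% lay above 0 with quantile normalization and 49.5% with cyclic loess, with medians of -0.0018 and -0.0039. The small upward displacement therefore varied in size with the scaling between arrays. Over the main scaling and 8 alternatives, 49 members stayed above 0, 17 stayed below 0 and 21 took both signs. The same count was not made over all measured genes, so it has no background to be read against. A difference larger than the software's own error was seen for 19 members (21.8%), against 48.5% of all measured genes, and for 3 members it exceeded 2 such errors. For members this error was nearly a fixed size, at a median of 10% of signal on each array. It was 0.20 for nearly every member and 0.25 for Ndufaf2, so the count acts much like another fold limit. In whole tissue, fewer cells of a type and less RNA per cell cannot be told apart, and this touches every value that follows.

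**Figure D2:**
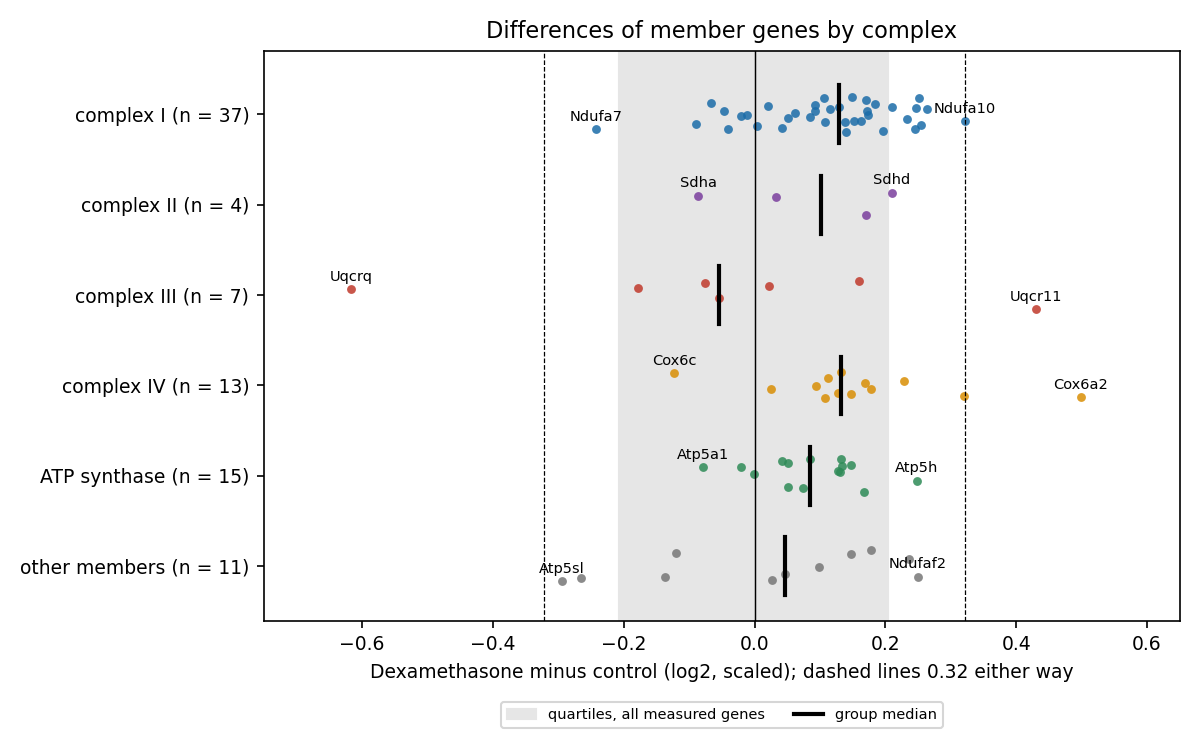
Differences (log2, dexamethasone minus control) of the 87 measured members by complex, 1 point per gene, with group medians as black bars, the quartiles of all measured genes in grey and 0.32 either way as dashed lines. The medians of complexes I, II and IV and ATP synthase lie between 0.085 and 0.13, and that of complex III at -0.054; with cyclic loess the ATP synthase median is -0.0084.

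Complex I, the NADH dehydrogenase, was complete as listed: all 37 genes were measured, 30 lay above 0 and 7 below, with a median of 0.13. Ndufa10, an accessory subunit, had the largest difference, with a signal of 20544 on the dexamethasone array and 15595 on the control array (0.32, just inside the limit before rounding). Ndufs7, a core subunit that carries an iron-sulphur cluster, had 18509 on the dexamethasone array and 14624 on the control array (0.26). Ndufs4, an accessory subunit needed for a stable complex and mutated in human Leigh syndrome, had 10032 on the dexamethasone array and 7977 on the control array (0.26). Ndufb10, of the membrane arm, followed with 42686 on the dexamethasone array and 34017 on the control array (0.25). These 4 were higher on the dexamethasone array under every scaling tried, with lowest values of 0.25 for Ndufa10 and 0.20 for Ndufs7. Ndufa10l1, a gene copy named after Ndufa10, had probes at 0.099 and 0.17; its brighter probe lies at rn4 chr9:91655487-91655546 and that of Ndufa10 at chr9:91654891-91654950, so whether they report separate transcripts was not tested.

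At the other end of complex I, and named after their values were seen, Ndufa7, an accessory subunit, had 2232 on the dexamethasone array and 2506 on the control array (-0.24). Ndufs1, the core subunit with several iron-sulphur clusters, had 14640 on the dexamethasone array and 14784 on the control array (-0.090). These lay below 0 under every setting tried, and so did Ndufa8 and Ndufa13 in the same complex. Ndufa4, which was named as a complex I subunit and later assigned to complex IV, was at 0.092, with 0 under quantile normalization. Ndufv3, an accessory subunit beside the NADH-binding site, was at 0.0044 on its brightest probe.

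Complex II, succinate dehydrogenase, also belongs to the citric acid cycle and has 4 subunits, all nuclear. Sdhd, a membrane anchor, had 18558 on the dexamethasone array and 15229 on the control array (0.21), and Sdhc, the other anchor, had 12268 on the dexamethasone array and 10343 on the control array (0.17). Sdhb, the iron-sulphur subunit, had 12959 on the dexamethasone array and 12017 on the control array (0.033). Sdha, the flavoprotein that oxidises succinate, had 16634 on the dexamethasone array and 16754 on the control array (-0.086). The 2 anchors were thus higher and the 2 catalytic subunits near or below 0. Sdhd and Sdhc stayed above 0 and Sdha below 0 in all settings, while Sdhb took both signs.

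Complex III, the cytochrome bc1 complex, held the members farthest apart. Its 7 genes had a median of -0.054, with 3 above 0 and 4 below, and an SD of 0.32 against 0.16 over all members. The ends of this spread were Uqcr11 and Uqcrq, and Uqcrq was read from a dim probe. Uqcr11, a small subunit of the complex, had 71142 on the dexamethasone array and 50085 on the control array, 1.35-fold higher (0.43). Its other probes had 40706 and 43352 on the dexamethasone array and 27752 and 32888 on the control array, with differences of 0.48 and 0.32. All 3 probes were therefore higher on the dexamethasone array. The middle pair is not independent, as these probes share 30 bases. The probe at 0.48 is printed because it shows this overlap (rn4 chr7:10819576-10819635, plus strand; 60 bases, capitals mark the 30 bases it shares with the probe at 0.32).
Uqcr11 probe: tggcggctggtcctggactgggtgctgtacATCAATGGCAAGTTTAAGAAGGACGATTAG
The remaining probe begins 1361 bases after the printed one and does not overlap it.

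Uqcrq, a small subunit linked to ubiquinone binding, went the other way. It had 163 on the dexamethasone array and 237 on the control array, 1.53-fold lower (-0.62), the largest difference of any member. It rests on 1 probe with 1 spot per array, and it was -0.48 with normexp background correction. The next dimmest gene of the complex, Uqcrc1, had 15649 on the dexamethasone array and 15413 on the control array. Whether the Uqcrq probe reports the main transcript was not tested. Uqcrc2, a core protein related to processing peptidases, had 16635 on the dexamethasone array and 17855 on the control array (-0.18), and its partner Uqcrc1 was at -0.054. Uqcrfs1, the Rieske iron-sulphur protein that takes electrons from ubiquinol, was at -0.076. These 4 lay below 0 under every setting. Uqcrb, a small subunit near the quinone site, had 56744 on the dexamethasone array and 48191 on the control array (0.16), and Uqcrh, the hinge protein that helps cytochrome c bind, was at 0.023.

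Complex IV, cytochrome c oxidase, was measured for 13 of its 15 listed genes, with a median of 0.13 and 12 above 0. Cox6a2, the heart and skeletal muscle form of subunit VIa, had 765 on the dexamethasone array and 514 on the control array, 1.41-fold higher (0.50), the highest difference of any member. Its general partner Cox6a1 had 265433 on the dexamethasone array, but its only spot on the control array carried an outlier mark, so no difference was computed. Cox7c, a small subunit found in all tissues, had 6739 on the dexamethasone array and 5120 on the control array (0.32). Cox5b, which binds zinc, had 98883 on the dexamethasone array and 80069 on the control array (0.23). All 3 differences stayed above 0 in all settings.

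Several subunits of complex IV come as isoform pairs with different tissue ranges, and these could be read side by side. Cox4i1, the general form of subunit IV, was at 0.11 and Cox4i2, the form induced by low oxygen and abundant in lung, at 0.13. Cox8a, the general form of subunit VIII, was at 0.18 and Cox8b, the heart and muscle form, at 0.15. Cox8c, known from testis, was not well above background on either array, with 1.99 on the dexamethasone array and 1.71 on the control array. The differences of the measured general and restricted forms of subunits IV and VIII thus lay closer together than the software's error. Cox6b2, the testis form of subunit VIb, was at 0.13; its general form Cox6b1 appears under another name in the files and its 3 probes, found after the members' values were seen, were at 0.19, 0.17 and 0.15. Cox7a2 was at 0.024 and Cox7a2l, which helps join complexes III and IV into supercomplexes, at 0.094.

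Cox6c was the only measured complex IV gene below 0, with 113728 on the dexamethasone array and 117515 on the control array (-0.12). Its pseudogene Cox6c-ps1 was at -0.12 on its brighter probe, with 7870 on the dexamethasone array and 8115 on the control array, and at 0.047 on a probe with a signal of 75.4 on the dexamethasone array and 69.3 on the control array. The probes for gene and pseudogene are much alike: the brighter pseudogene probe aligns to the Cox6c probe over 46 bases with 6 mismatches. They are printed to show that likeness, with capitals at the mismatched bases (rn4 chr7:71474381-71474440 for Cox6c and chr19:54398139-54398198 for Cox6c-ps1, minus strand, 60 bases each).
Cox6c probe: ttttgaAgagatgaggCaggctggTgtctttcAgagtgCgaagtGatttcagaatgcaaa
Cox6c-ps1 probe: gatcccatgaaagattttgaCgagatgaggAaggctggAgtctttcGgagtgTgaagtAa
Whether Cox6c transcripts contribute to the pseudogene's signal was not tested, so the value for Cox6c-ps1 is uncertain.

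ATP synthase had all 15 genes measured, 12 above 0 and 3 below, with a median of 0.085 that became -0.0084 with cyclic loess and 0.014 with quantile normalization. In the catalytic head, Atp5a1 (the alpha subunit) had 162113 on the dexamethasone array and 162506 on the control array (-0.079). Atp5b, the beta subunit that holds the catalytic sites, had 9491 on the dexamethasone array and 9135 on the control array (-0.021). Atp5c1, the rotating gamma subunit, had 17385 on the dexamethasone array and 14889 on the control array (0.15). The 5 genes of the head had a median of 0.051, and the 10 genes of the stalks and membrane part one of 0.11. Atp5h, the stalk subunit d, had 45383 on the dexamethasone array and 36270 on the control array (0.25), and its gene copy Atp5hl1 was at 0.24. Atp5l, the membrane subunit g, had 85551 on the dexamethasone array and 72317 on the control array (0.17), while Atp5f1, the stalk subunit b, was at -0.0013. The 3 genes for the c subunit, whose mature proteins are identical, were at 0.13 (Atp5g1), 0.13 (Atp5g2) and 0.051 (Atp5g3).

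**Figure D3:**
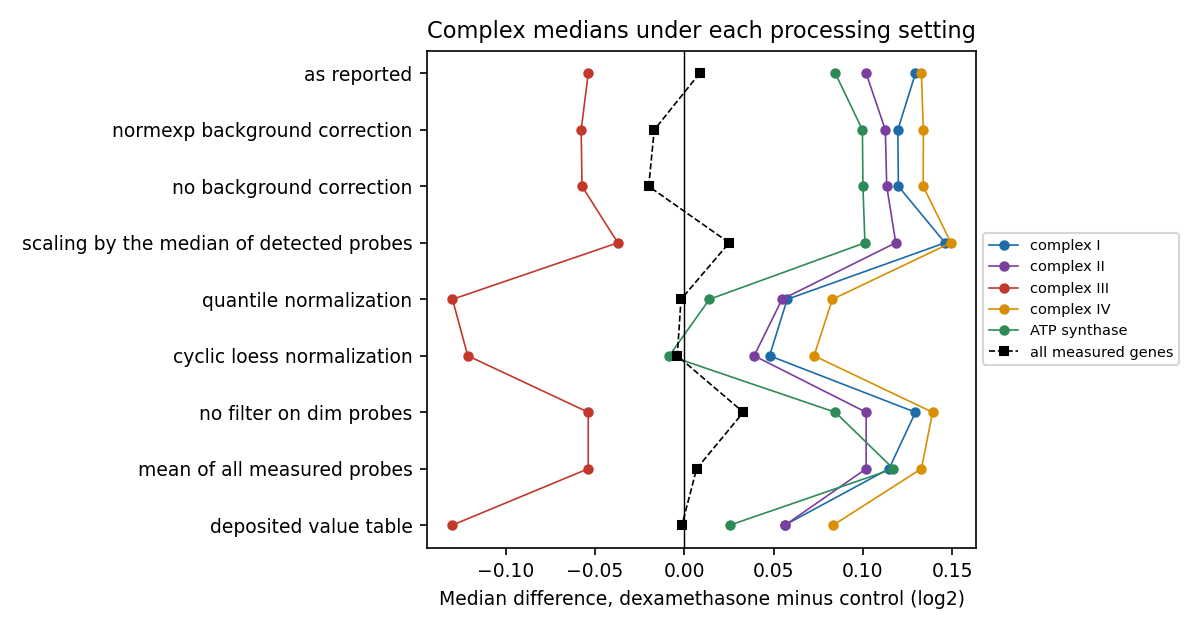
Median difference (log2, dexamethasone minus control) of each complex and of all measured genes under the main scaling (top row) and each of 8 alternatives. Complex III lies below 0 in every row and complexes I, II and IV above 0; the ATP synthase median is just below 0 with cyclic loess.

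The subunits that carry redox centres or catalyse ATP synthesis were set beside the rest, a grouping made after the values were seen and therefore only a description. These 12 genes were the 7 nuclear core subunits of complex I, Sdha, Sdhb, Uqcrfs1, Atp5a1 and Atp5b. They had a median of -0.00035, with 6 above 0 and 6 below. The 64 other measured subunit genes had a median of 0.13, with 54 above 0 and 10 below. The order was the same within complex I (0.052 for core and 0.14 for other subunits), complex II (-0.026 and 0.19) and ATP synthase (-0.050 and 0.13). With cyclic loess the medians were -0.057 for the 12 genes and 0.044 for the others, and with quantile normalization -0.046 and 0.057. Among the core subunits Ndufs7 (0.26), Ndufv2 (0.13) and Ndufs3 (0.11) lay near or above the median of the other subunits, so the groups overlapped.

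The 11 members that are not subunits had a median of 0.046, with 7 above 0 and 4 below. Of the 4 Ndufaf genes, assembly factors that help build complex I and are not part of it, Ndufaf4 was lowest, with 2003 on the dexamethasone array and 2284 on the control array (-0.27); all 4 of its probes lay between -0.27 and -0.22. Ndufaf2 was at 0.25 with a signal of only 24.8 on the dexamethasone array and 19.8 on the control array, and it turned to -0.13 with normexp. Atp5sl, now called Dmac2 and also a complex I assembly factor, was at -0.29 and Atp5s, a factor that couples ATP synthase, at 0.046. Cox4nb, now called Emc8, encodes a subunit of a membrane-protein insertion complex of the endoplasmic reticulum and was at 0.18. Ndufaf4, Atp5sl, Ndufaf2 and Cox4nb were named after their values were seen.

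Spot repeats give the only measured error. Among the members, 14 genes had a probe printed 10 times on each array, and the SD of the difference over pairs of spots was 0.034 in the median and 0.012 to 0.061 in range. With the main scaling every pair was higher on the dexamethasone array for 12 of the 14, as it was for 43.9% of the 1314 repeated probes. For none was every pair lower, as it was for 31.7%. Sdhd had the highest such difference at 0.21 ± 0.034 (SD, n = 10 spot pairs). Its unscaled spots spanned 17919 to 19383 on the dexamethasone array and 14351 to 15981 on the control array, with no overlap. Unscaled spots leave out the shift between arrays. Those of Atp5b did not overlap either, with 9289 to 9591 on the dexamethasone array and 8961 to 9277 on the control array. Atp5f1 split evenly, with 5 pairs higher and 5 lower, and Atp5b was lower in 9 of 10 pairs at -0.021 ± 0.026. The repeated probes of Ndufb3, Ndufs3, Cox7b, Ndufv3, Ndufv2, Uqcrb, Ndufa6, Ndufb9, Ndufb8, Ndufb5 and Cox8a lay between 0.092 and 0.18. For Ndufv3 and Uqcrb these are not the probes used for the gene; the probe used for Ndufv3 was at 0.0044. The count was not recomputed under other scalings, where Ndufb3 was at 0.0093 with quantile normalization and -5.8e-05 with cyclic loess. Repeated spots share 1 labelled RNA, so this error leaves out the spread between animals and between labellings.

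**Figure D4:**
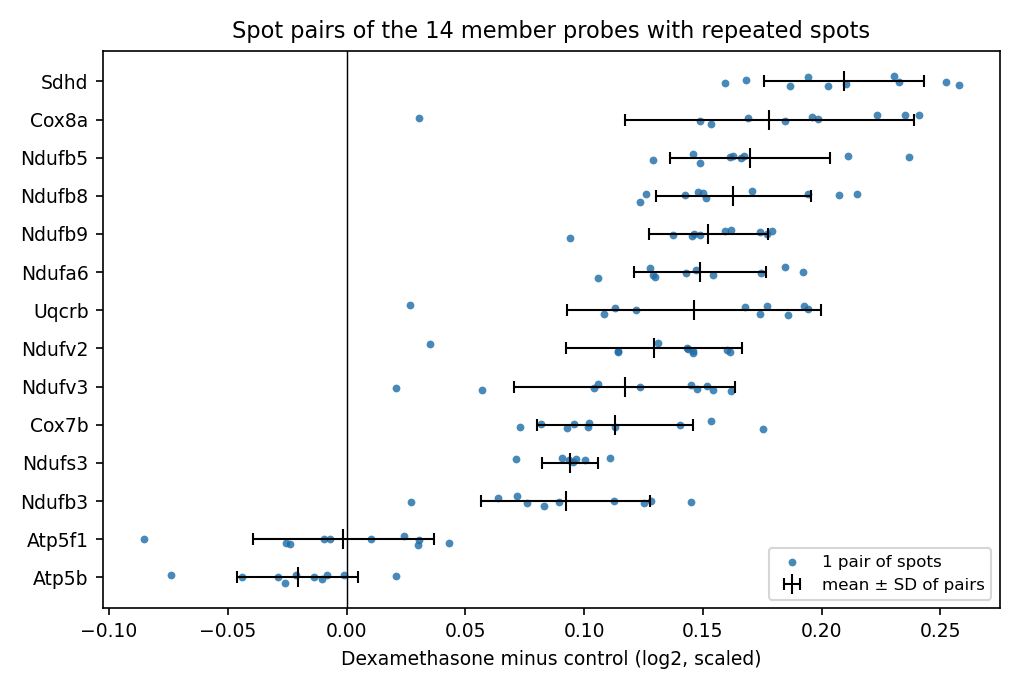
Differences (log2, dexamethasone minus control) of the 14 member probes with repeated spots, 1 point per pair of spots at matching positions, with mean ± SD over pairs. For 12 genes all pairs lie above 0; Atp5f1 and Atp5b lie around 0.

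Different probes for 1 gene offer another check within the arrays. For 19 members with several measured probes, the range between probes was 0.075 in the median and under 0.32 for 18. Probes of 4 genes had opposite signs. Ndufab1, the mitochondrial acyl carrier protein, had 19338 on the dexamethasone array and 16281 on the control array on its brighter probe (0.17). On its other probe it had 30.6 on the dexamethasone array and 66.2 on the control array (-1.19, or -0.54 with normexp). That dim probe lies 4497 bases away, and its value is the only member probe past 2-fold. The others were Ndufb4 (-0.020 and 0.094), Atp5d (0.051 and -0.21) and Cox6c-ps1.

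Promoters of respiratory chain genes are known for binding sites of NRF1, of ETS-family factors such as GABP, and of YY1. RefSeq promoter windows (assembly GRCr8, from 250 bases before to 50 bases after the annotated start) were found for 76 of the 89 members. Each was searched on both strands for GCGCATGCG (NRF1), CCGGAAG (the ETS core) and AAGATGGC (YY1), none of which is contained in another. The NRF1 letters were in 7 member windows (9.21%, against 1.66% of all 27457 windows), the ETS core in 22 (28.9% against 9.22%) and the YY1 letters in 15 (19.7% against 3.44%). At least 1 of the 3 was in 35 member windows and at least 2 in 8, and these combinations were not counted over all windows. The letters TCAAGGTCA, of oestrogen-related receptors, were in 2 (2.63% against 0.412%), and TATAAA, of the TATA box, in 5 (6.58% against 14.3%). These are matches of letters and not sites of binding. Members with the ETS core had a median difference of 0.051 and those without it 0.13; with the YY1 letters the medians were 0.13 and 0.11, and with the NRF1 letters 0.13 and 0.11. The windows of Atp5i (now Atp5me, GRCr8 chr14:1464610-1464909, plus strand), Atp5o (now Atp5po, chr11:44657434-44657733, minus strand) and Cox8a (chr1:213833574-213833873, minus strand) are shown as examples with 2 or 3 of the motifs, which are in capitals on either strand.
Atp5i promoter: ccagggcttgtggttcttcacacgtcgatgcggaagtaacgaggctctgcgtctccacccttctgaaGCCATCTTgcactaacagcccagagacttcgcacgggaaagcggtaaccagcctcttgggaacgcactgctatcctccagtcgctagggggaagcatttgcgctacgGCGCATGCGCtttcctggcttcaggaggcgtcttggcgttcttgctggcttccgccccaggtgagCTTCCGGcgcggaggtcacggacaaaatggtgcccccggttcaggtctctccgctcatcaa
Atp5o promoter: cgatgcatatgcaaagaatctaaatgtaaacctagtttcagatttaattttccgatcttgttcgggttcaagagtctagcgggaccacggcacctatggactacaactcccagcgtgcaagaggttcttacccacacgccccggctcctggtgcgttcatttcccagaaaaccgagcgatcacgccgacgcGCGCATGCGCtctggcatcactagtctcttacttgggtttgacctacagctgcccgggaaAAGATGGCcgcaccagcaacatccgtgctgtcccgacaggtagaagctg
Cox8a promoter: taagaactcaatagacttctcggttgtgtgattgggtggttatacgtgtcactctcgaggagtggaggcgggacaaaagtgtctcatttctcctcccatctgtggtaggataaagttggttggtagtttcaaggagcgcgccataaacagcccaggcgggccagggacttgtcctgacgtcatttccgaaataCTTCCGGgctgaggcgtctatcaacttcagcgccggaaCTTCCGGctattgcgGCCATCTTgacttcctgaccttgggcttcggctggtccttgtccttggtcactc
Atp5o was at 0.13, Cox8a at 0.18 and Atp5i at 0.042. These values lay closer together than the software's error of 0.204, and a link between the letters and the differences was not tested.

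Neighbouring mitochondrial pathways gave a scale for the subunits' displacement. The 76 measured subunit genes had a median of 0.12, while 33 assembly factors outside the member names had one of -0.046, with 13 above 0 and 20 below. Ttc19, a complex III assembly factor, was lowest among them at -0.46, with 867 on the dexamethasone array and 1129 on the control array. The pyruvate dehydrogenase and citric acid cycle list (19 genes) had a median of -0.038, glycolysis (16 genes) one of 0.020, and mitochondrial ribosomal proteins (72 genes) one of 0.082 with 53 above 0. Among regulators of mitochondrial gene expression, 5 of 15 lay above 0 (median -0.040); Polrmt, the mitochondrial RNA polymerase, had 1993 on the dexamethasone array and 2658 on the control array (-0.49), and Ppargc1a, a coactivator of mitochondrial biogenesis, had 273 on the dexamethasone array and 220 on the control array (0.24). The probe named for Twnk, the mitochondrial DNA helicase, had 98276 on the dexamethasone array and 143424 on the control array (-0.62); whether it reports that transcript alone was not tested. In the list of cytochrome c, carriers and uncoupling proteins (15 genes, median 0.0039), Ucp2, an uncoupling protein of the inner membrane, had 475 on the dexamethasone array and 170 on the control array (1.40 with a spot SD of 0.060), the only gene of these lists past 2-fold. No gene name of the mitochondrially encoded subunits was found by the names searched.

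**Figure D5:**
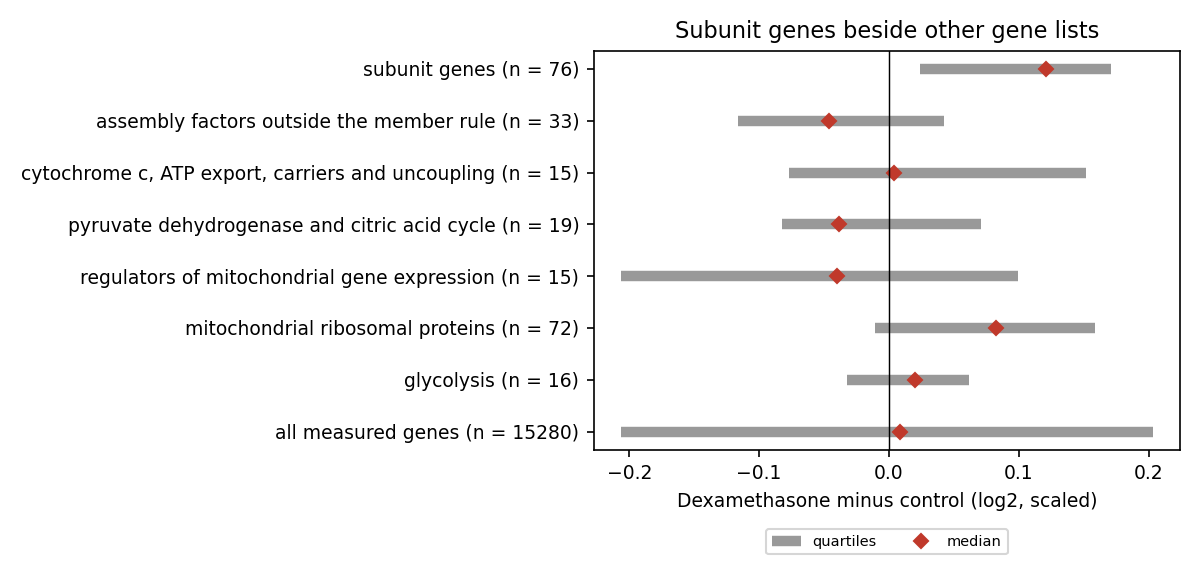
Median (diamond) and quartiles (bar) of the difference (log2, dexamethasone minus control) for the subunit genes, 6 other lists and all measured genes, with the number of measured genes beside each name. The subunit genes, at 0.12, and the mitochondrial ribosomal proteins, at 0.082, have the highest medians.

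The cell make-up of the 2 dissections differed in their markers, and its part in the subunit values was not tested. All 5 markers of the PVN and hypothalamus were measured; their summed signal was 2760 on the dexamethasone array and 5784 on the control array, and 4 of 5 were lower (Avp -1.91, Oxt -1.38, Crh 1.39). All 7 measured markers of cortex and striatum were higher on the dexamethasone array, with summed signals of 22732 there and 3639 on the control array, and Tbr1 was not measured on both. All 4 thalamic markers were lower, with 45057 on the dexamethasone array and 85378 on the control array. All 3 measured blood markers were higher, with 210883 on the dexamethasone array and 73849 on the control array. General neuronal markers had a median of 0.17 (6 of 7 higher), those of astrocytes 0.35 (5 of 6), of oligodendrocytes 0.25 (5 of 6) and of microglia 0.075 (5 of 7). Medians were -0.012 for endothelium (2 of 5 higher), -0.24 for pericytes and smooth muscle (1 of 7), 0.10 for choroid plexus (2 of 4) and 0.11 for parvalbumin neurons (2 of 4). The parvalbumin median lies between large opposite values: Pvalb at 1.01, Syt2 at 0.60, Kcnc1 at -0.39 and Kcnc2 at -0.996. Among striated muscle markers 4 of 6 measured were higher, with Myh2 at 1.91 and Ckm at -1.69. These probes were dim: Myh2 had 79.2 on the dexamethasone array and 19.9 on the control array (0.77 with normexp), and Ckm had 21.6 on the dexamethasone array and 66.4 on the control array (-0.55 with normexp). The list's summed signal was 1099 on the dexamethasone array and 822 on the control array, of which Tnnt2 alone had 541 and 312. A link between this sum and the value of the muscle isoform Cox6a2 was not tested.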

How the data were processed

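Total RNA of the PVN was amplified and labelled with Cy3 for 1-colour Agilent arrays, per the labels' protocols. The deposited files hold spot intensity made with Feature Extraction 10.7.1.1 per the file headers (9.5.1.1 per the submitters' processing notes), with probe positions on rn4. The authors' value table gives intensity in which both columns have nearly 1 distribution; no source used here names its algorithm. Processed intensities of spots without outlier marks (249 outlier spots on the dexamethasone array and 267 on the control array) were put on the log2 scale and averaged per probe, and the array's 75th percentile was subtracted. No spot was saturated. Alternatives used limma 3.58.1 in R 4.3.3 (normexp with offset 50, quantile and cyclic loess); Python 3.11.15 and pandas 2.3.3 were used for the rest. Member probes were named through RefSeq tables of GRCr8: 97 by accession, 10 by symbol and 5 by older symbol. Both arrays were on 1 slide; slide position cannot be told apart from group.

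Named genes were members at least 2-fold apart, all of complex II, and per complex the 4 with the largest absolute difference and the brightest. Members with repeated spots, with tissue-limited isoforms, measured on 1 array or with probes of opposite sign were also named. For each other pathway list the rule gave the 3 genes with the largest absolute difference. Of those, only Ttc19, Ucp2, Twnk, Polrmt and Ppargc1a are described above. Any other gene was picked with its value known. The members and lists were chosen with earlier results of these data known. No replicate exists, so no test was made, and fold limits of 2 and 1.25 are rules of size.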

Additional observations from a re-analysis of the deposited data

How the results depend on the processing

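No paired analysis was possible because each group has 1 array. No member was 2-fold higher or lower in any of the 8 alternatives. The medians of the members and of each complex moved by less than the typical spot SD (0.041) with normexp, without background correction, with scaling by the median of detected probes, without the filter on dim probes and with the mean of all probes. They moved by more under the settings that equalise the arrays' distributions. With quantile normalization the medians were 0.042 for all members, 0.058 for complex I, 0.055 for complex II, -0.13 for complex III, 0.083 for complex IV and 0.014 for ATP synthase. With cyclic loess they were 0.034, 0.048, 0.039, -0.12, 0.073 and -0.0084 in the same order, and with the intensities that the authors deposited as a value table they were 0.038, 0.056, 0.056, -0.13, 0.083 and 0.025. The cause was not tested. Of 45 named members, 42 moved by more than the spot SD with cyclic loess, 37 with quantile normalization and 36 with the deposited table, against 7 with the mean of all probes. The differences of 68 of the 87 measured members lie within the software's error, and that of Ndufaf2, with a signal of 24.8 on the dexamethasone array and 19.8 on the control array, took both signs with the background correction.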

Other observations

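Some subunits are in the files under other names and fell outside the members; they were looked up after the members' values were seen. Uqcr10, a small subunit of complex III, had 127253 on the dexamethasone array and 109790 on the control array (0.14). Cyc1, the cytochrome c1 of complex III, had 57277 on the dexamethasone array and 57222 on the control array (-0.074). Atp5mk, a small membrane subunit of ATP synthase, was at 0.14 and 0.0087 on its 2 probes, and Atp5if1, the inhibitor of ATP hydrolysis, at 0.13. Ndufaf5, Ndufaf6 and Ndufaf7, assembly factors of complex I, were at -0.084, -0.098 and -0.12 on their brighter probes, and Ndufaf8 at 0.059. Across the 87 members, which share both arrays, the difference correlated with the probe's GC content at -0.030 and with its mean log2 signal at 0.18 (Pearson), given as a description only.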
